A study of Homo sapiens with 4 samples.

Results

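The NRF2 and aryl hydrocarbon receptor (AHR) genes described here are 33 genes of the antioxidant and xenobiotic responses, out of 18640 genes measured. They were chosen by name from what is known of the pathways, 24 as antioxidant genes and 9 as xenobiotic genes. Earlier results of these data were known when they were chosen. Each gene was read as the mean of the array probesets that carry its symbol alone. All 33 of 33 were measured, on 346 probesets in all. The study exposed embryoid bodies, floating clumps of human embryonic stem cells that start to form early embryonic cell types, to TBBD, which the series presents as an inhibitor of arginine methylation on histone H3. The compound is also known as ellagic acid, a dietary polyphenol. The tested embryoid bodies received 10 µM TBBD for 48 h, generally within day 2 to day 4 of their formation, and the control embryoid bodies received the vehicle DMSO. Every sample was grown from BG01V, a single human embryonic stem cell line whose karyotype is abnormal. Each treatment had 2 arrays, numbered replicate 1 and replicate 2. The labels do not say what a number marks or whether replicates were separate cultures, so a p-value here reflects only how far these arrays spread, which may be technical.

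NRF2 is a transcription factor held at low levels by KEAP1, which hands it to a ubiquitin ligase. Reactive compounds that modify KEAP1 let NRF2 accumulate, pair with small MAF proteins and switch on antioxidant response elements in genes for glutathione, thioredoxin, NADPH, quinone and iron metabolism. AHR is a cytoplasmic receptor for planar aromatic compounds, natural polyphenols among them, that pairs with ARNT and binds xenobiotic response elements in genes such as CYP1A1. Quinone reductase and cytochrome P450 1A transcripts are therefore common readouts of exposure to polyphenols.

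Short core strings of the 2 response elements that NRF2 and AHR are known to bind occur in the promoters of some of these genes. Examples are shown here, and whether either protein binds them was not tested. Promoter sequence came from RefSeq, build GRCh38.p14, and matched 25 of the 33 genes by symbol. In the following stretches of 60 bases, written along the gene's own strand, capitals mark TGACNNNGC, the core of the antioxidant response element, or GCGTG, the core of the xenobiotic response element, each read on either strand. In GCLM and TIPARP the core lies on the opposite strand, so its reverse complement is in capitals.
GCLM, chr1:93909431-93909490, minus strand: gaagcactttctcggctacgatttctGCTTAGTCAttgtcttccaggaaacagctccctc
TXNRD1, chr12:104215655-104215714, plus strand: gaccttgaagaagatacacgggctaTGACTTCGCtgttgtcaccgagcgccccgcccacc
ME1, chr6:83431154-83431213, minus strand: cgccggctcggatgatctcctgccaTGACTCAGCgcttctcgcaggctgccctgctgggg
CYP1A1, chr15:74725553-74725612, minus strand: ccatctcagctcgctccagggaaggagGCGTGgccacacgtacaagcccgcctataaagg
TIPARP, chr3:156674421-156674480, plus strand: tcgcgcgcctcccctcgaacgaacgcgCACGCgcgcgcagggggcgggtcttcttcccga

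Within the 250 bases before the start, TGACNNNGC was found in 4 of 18 antioxidant genes with a promoter sequence (22.2%), in 1 of 7 xenobiotic genes (14.3%), and in 11% of all 27305 promoters in the table. The 4 antioxidant genes were GCLM, TXNRD1, ME1 and PGD, and the xenobiotic one was ARNT. GCGTG was found in 8 of 18 antioxidant genes (44.4%), in 4 of 7 xenobiotic genes (57.1%) and in 31.9% of all promoters. The 4 xenobiotic genes were CYP1A1, TIPARP, AHRR and UGT1A6. No match of one core overlapped a match of the other in these genes. A match is a string of letters, and no protein binding was measured.

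None of the 33 genes differed between TBBD and DMSO in limma's moderated test. With Benjamini-Hochberg adjustment over all 18640 genes, 0 of 33 had an adjusted p under 0.05, as did 0% of all genes, and each had an adjusted p of 1. At an unadjusted p under 0.05 in limma there were 0 of 33, against 0.746% of all genes. The antioxidant genes had a median log2 difference (TBBD minus DMSO) of 0.033, with 16 of 24 higher and 8 lower, and the xenobiotic genes had 0.028, with 5 of 9 higher and 4 lower. Over all genes the median was -0.0035, and 48.8% were higher. The 348 olfactory receptor genes, used below as a rough guide to background, had a median of 0.028, and 63.5% were higher.

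The intervals show what size of difference was within reach. A gene's 95% confidence interval lay within 1 log2 unit (2-fold) of 0 on both sides for 30 of the 33 genes. The exceptions were NQO1 and UGT1A6 on the upper side, at 1.08 and 1.04, and PRDX1 on the lower side, at -1.05. For 16 genes the upper bound was below 0.5. These bounds come from the fit on treatment alone, whose spread includes the difference between replicate numbers. With the number as a block, the median standard error was 0.12 instead of 0.19 for the antioxidant genes and 0.12 instead of 0.14 for the xenobiotic genes, and 0 of 33 had an unadjusted p under 0.05 in limma there either. With 2 arrays a group an exact permutation test of 1 gene cannot give a p below 0.333.

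The treatments did not overlap for 3 of the 33 genes, which were FTL, ALDH3A1 and ARNT, all 3 higher with TBBD. Of all genes 20.9% had treatments that did not overlap, 10.5% higher and 10.4% lower with TBBD. That share was 1 of 24 for the antioxidant genes and 2 of 9 for the xenobiotic genes. Among the 348 olfactory receptor genes it was 30.5%, with 22.1% higher and 8.3% lower with TBBD. Of these 348 genes 284 rested on 1 probeset, against 2 of the 33, so the shares are not like for like.

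**Figure D1:**
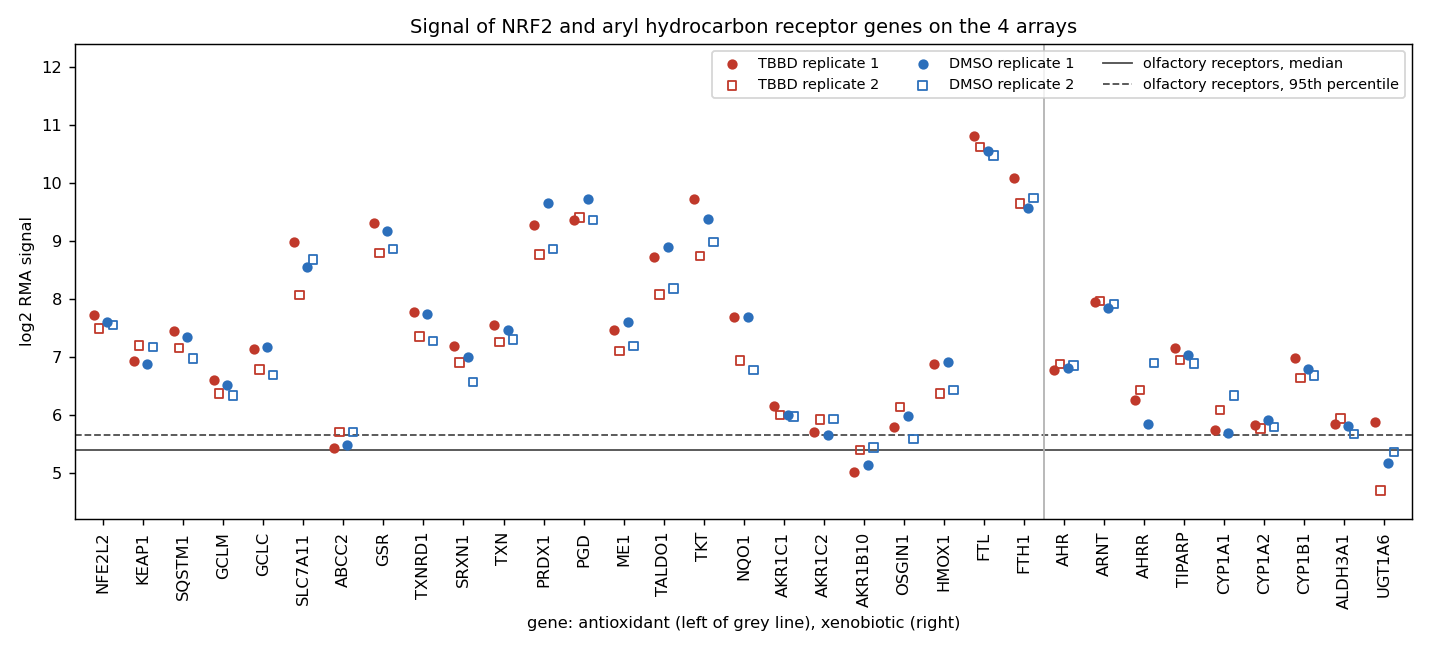
Log2 RMA signal (vertical axis) of each of the 33 genes (horizontal axis) on the 4 arrays, with TBBD in red and DMSO in blue, replicate 1 as filled circles and replicate 2 as open squares. Horizontal lines give the median (5.40) and the 95th percentile (5.66) of 348 olfactory receptor genes. For genes such as NQO1, TALDO1 and HMOX1 the filled points of both colours lie together above the open ones.

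Median signals of the 4 arrays lay between 6.39 and 6.42. The labelled cell type was checked against fixed marker lists: the 11 measured pluripotency markers had a median signal of 7.32, from 5.91 for TERT to 10.99 for PODXL, with POU5F1 at 7.32, NANOG at 6.60 and SOX2 at 6.57. KRT8, a keratin of early epithelium, averaged 11.28. Median signals were 8.96 for mesenchyme, 8.95 for keratin epithelium and 7.84 for trophoblast markers, each above the pluripotency median. They were 6.41 for primitive streak, 6.29 for neural, 6.14 for visceral endoderm and liver, and 5.84 for endothelial and blood markers. These levels thus do not single out pluripotent cells. Olfactory receptor genes, which these cells are not known to use, served as a rough guide to the array's background. The guide is rough since no detection call was used, probes differ in brightness, and 284 of the 348 rested on 1 probeset. By mean signal, 30 of the 33 genes and all 11 of 11 pluripotency markers exceeded the 95th percentile of the olfactory receptors, as did 74.7% of all genes. AKR1B10, ABCC2 and UGT1A6 did not, so it is uncertain whether they were expressed. AKR1C1, AKR1C2, OSGIN1, CYP1A1, CYP1A2 and ALDH3A1 passed it with mean signals of 5.80 to 6.03. These lay below the highest olfactory receptor gene, at 6.30, so the expression of these genes is also less certain.

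Among the regulators of the antioxidant response, NFE2L2, which encodes NRF2, had log2 signals of 7.72 and 7.49 in TBBD replicates 1 and 2, against 7.60 and 7.55 in DMSO replicates 1 and 2. KEAP1 had 6.92 and 7.19 with TBBD, against 6.88 and 7.17 with DMSO. Replicate number 1 was the lower one for KEAP1 under both treatments, and the treatments overlapped for both genes. The differences were 0.032 ± 0.13 (SE) for NFE2L2 and 0.033 ± 0.17 for KEAP1, and KEAP1 stood at -0.24 when the median of its probesets replaced the mean. SQSTM1, an autophagy receptor that binds KEAP1, differed by 0.14 ± 0.18. NRF2 is controlled mainly at the protein level, which arrays do not measure.

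Genes of glutathione synthesis and transport showed no common direction. GCLM, the modifier subunit of the enzyme that starts glutathione synthesis, had log2 signals of 6.59 and 6.36 with TBBD, against 6.52 and 6.33 with DMSO. Its treatments overlapped, with a difference of 0.053 ± 0.14 (SE) and a 95% confidence interval from -0.32 to 0.42. The catalytic subunit gene GCLC differed by 0.036 ± 0.22, and GSR, which regenerates reduced glutathione, by 0.032 ± 0.22. SLC7A11, which imports the cystine that glutathione synthesis needs, had 8.98 and 8.06 with TBBD, against 8.55 and 8.68 with DMSO. The TBBD arrays were thus the highest and the lowest of the 4 for SLC7A11, which was higher by 0.43 in replicate 1 and lower at -0.62 in replicate 2. Its mean difference was -0.094 ± 0.31. It was -0.55 without TBBD replicate 1, a fit that mixes treatment with replicate number. ABCC2, an exporter of glutathione conjugates, differed by -0.020 ± 0.16 at a signal near background.

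The thioredoxin genes held both the highest and the lowest difference of the 33. SRXN1, the sulfiredoxin that repairs overoxidised peroxiredoxins, had log2 signals of 7.18 and 6.90 with TBBD, against 6.99 and 6.56 with DMSO. TBBD was the higher array within each number, by 0.19 and 0.34, and all 5 of its 5 probesets were higher in both numbers, but TBBD replicate 2 lay below DMSO replicate 1 and the treatments overlapped. Its difference of 0.27 ± 0.19 (SE) had a 95% confidence interval from -0.23 to 0.77 (limma, unadjusted p = 0.229). It was 0.053 without DMSO replicate 2, 0.48 without DMSO replicate 1 and 0.48 with the median over probesets. PRDX1, a peroxiredoxin that SRXN1 can repair, had 9.27 and 8.77 with TBBD, against 9.65 and 8.86 with DMSO. TBBD was the lower array within each number, at -0.38 and -0.090, the treatments overlapped, and the difference was -0.24 ± 0.32. TXNRD1, which reduces thioredoxin, had 7.78 and 7.35 with TBBD, against 7.74 and 7.27 with DMSO, a difference of 0.057 ± 0.23. Thioredoxin itself, TXN, differed by 0.026 ± 0.15.

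Of the 4 genes of NADPH supply, 3 had a negative and 1 a positive difference. TALDO1, the transaldolase of the pentose phosphate pathway, had log2 signals of 8.73 and 8.07 with TBBD, against 8.90 and 8.18 with DMSO. By mean difference all 8 of its 8 probesets were lower with TBBD, but only 2 of the 8 were lower in both numbers. TKT, the transketolase of the same pathway, had 9.72 and 8.74 with TBBD, against 9.38 and 8.98 with DMSO. For both genes the 2 replicate 1 arrays were the high ones and the treatments overlapped. The differences were -0.14 ± 0.33 (SE) for TALDO1, 0.045 ± 0.35 for TKT, -0.16 ± 0.16 for the dehydrogenase gene PGD and -0.11 ± 0.21 for the malic enzyme gene ME1.

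NQO1, the quinone reductase most often used to report NRF2 activity, had log2 signals of 7.68 and 6.93 with TBBD, against 7.69 and 6.78 with DMSO. Both replicate 1 arrays were high and both replicate 2 arrays low, whatever the treatment. The difference between treatments was 0.074 ± 0.39 (SE), at -0.0087 in replicate 1 and 0.16 in replicate 2, and -0.11 with the median over probesets. The aldo-keto reductase genes AKR1C1, AKR1C2 and AKR1B10, which reduce reactive aldehydes and ketones, differed by 0.090 ± 0.12, 0.021 ± 0.16 and -0.080 ± 0.19. AKR1C1 and AKR1C2 are near-identical copies, so their probes may not tell them apart. OSGIN1, a growth inhibitor gene induced by oxidative stress, differed by 0.18 ± 0.20, with -0.19 in replicate 1 and 0.55 in replicate 2.

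Of the haem and iron genes, HMOX1, the inducible haem oxygenase, had log2 signals of 6.87 and 6.37 with TBBD, against 6.91 and 6.43 with DMSO. TBBD and DMSO lay close within each number, and the difference was -0.049 ± 0.24 (SE). FTH1, the heavy chain of the iron store ferritin, had 10.08 and 9.65 with TBBD, against 9.56 and 9.74 with DMSO. TBBD replicate 1 stood above the other 3 arrays, and the difference was 0.21 ± 0.18, made of 0.52 in replicate 1 and -0.094 in replicate 2. The light chain gene FTL, described because its treatments did not overlap, had 10.82 and 10.62 with TBBD, against 10.55 and 10.48 with DMSO. It differed by 0.21 ± 0.13, with an interval (95% confidence) from -0.12 to 0.53 (limma, unadjusted p = 0.161), and 6 of 7 probesets were higher with TBBD. Without TBBD replicate 1 it was 0.11, and without TBBD replicate 2 it was 0.31. Ferritin genes have many processed pseudogenes, so both signals may include other transcripts.

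**Figure D2:**
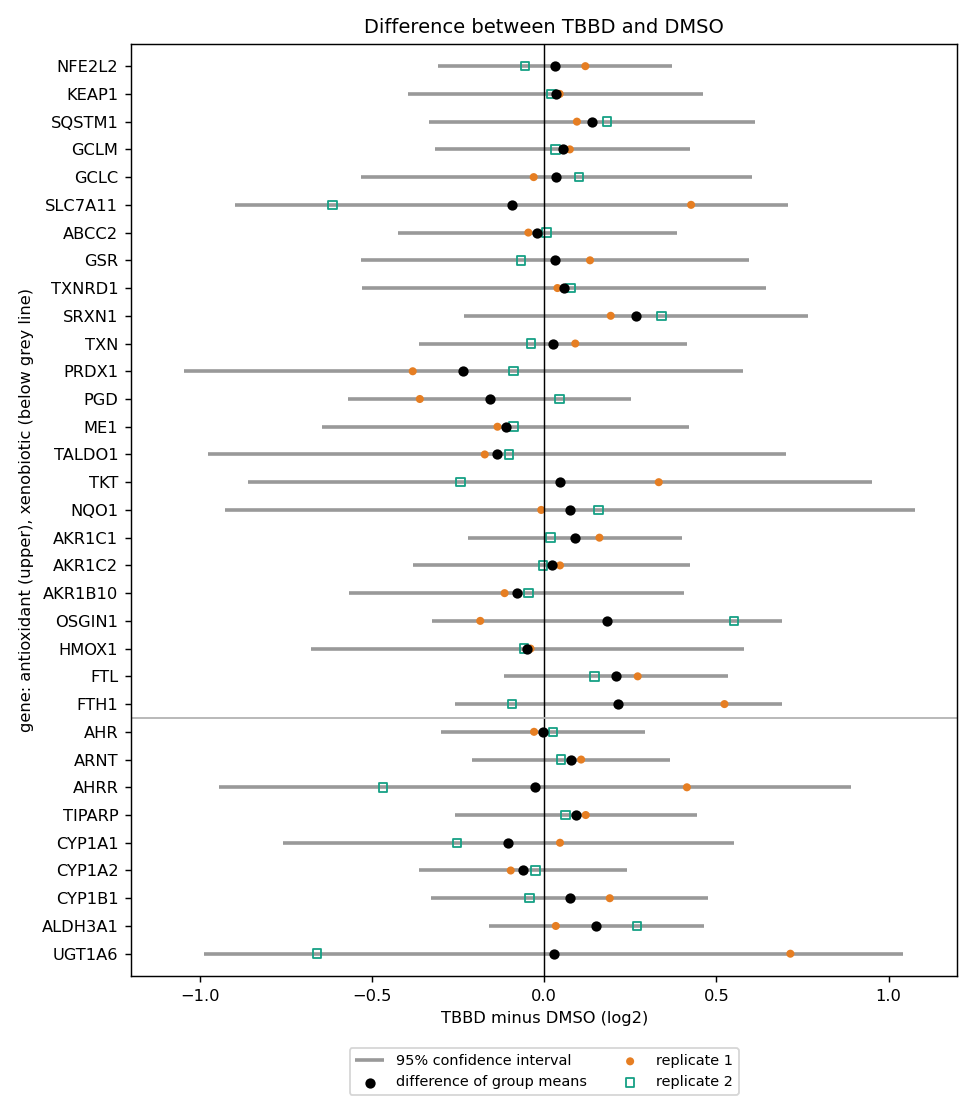
Log2 difference of TBBD minus DMSO (horizontal axis) for each of the 33 genes (vertical axis), with the difference of group means in black, its 95% confidence interval from limma in grey, and the replicate 1 and replicate 2 differences as orange circles and green squares. Every interval contains 0, and SLC7A11, AHRR and UGT1A6 have replicate differences of opposite sign and at least 0.41 in size.

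The receptor genes of the xenobiotic response were the steadiest of the 33 by standard error. AHR had log2 signals of 6.77 and 6.88 with TBBD, against 6.80 and 6.85 with DMSO, and the DMSO arrays lay between the TBBD arrays. It differed by -0.0023 ± 0.12 (SE; 95% confidence interval -0.30 to 0.29), and by 0.33 with the median over its 16 probesets. ARNT, the partner of AHR, had 7.94 and 7.96 with TBBD, against 7.84 and 7.91 with DMSO. Both TBBD arrays lay above both DMSO arrays, by 0.078 ± 0.11, and the median over its 25 probesets gave -0.0098.

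The feedback genes AHRR and TIPARP are induced by AHR and restrain it. AHRR, the AHR repressor, had log2 signals of 6.25 and 6.43 with TBBD, against 5.84 and 6.90 with DMSO. The DMSO arrays were the lowest and the highest, and AHRR was higher by 0.41 in replicate 1 and lower at -0.47 in replicate 2. It rested on 1 probeset. The mean difference of -0.027 ± 0.36 (SE) became 0.50 without DMSO replicate 2 and -0.56 without DMSO replicate 1. Both fits mix treatment with replicate number. A further 10 probesets that also name a neighbouring gene had mean signals of 6.01 and 5.80 with TBBD, against 5.86 and 5.73 with DMSO, a difference of 0.11. TIPARP, which modifies AHR with ADP-ribose, had 7.16 and 6.95 with TBBD, against 7.04 and 6.89 with DMSO. TBBD was higher within each number, the treatments overlapped, and the difference was 0.091 ± 0.14.

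Enzyme genes of the xenobiotic response showed no shared direction. CYP1A1, the cytochrome P450 gene most sensitive to AHR, had log2 signals of 5.74 and 6.08 with TBBD, against 5.69 and 6.33 with DMSO. Both replicate 2 arrays were the high ones, and CYP1A1 differed by -0.10 ± 0.25 (SE), with an interval (95% confidence) from -0.76 to 0.55. The mean signal of CYP1A1, 5.96, lay within the range of the olfactory receptor genes. CYP1B1, a related P450 of tissues outside the liver, had 6.98 and 6.64 with TBBD, against 6.79 and 6.68 with DMSO, overlapping groups with a difference of 0.074 ± 0.16. ALDH3A1, an aldehyde dehydrogenase, had 5.84 and 5.94 with TBBD, against 5.80 and 5.67 with DMSO. Its TBBD arrays lay above its DMSO arrays by 0.15 ± 0.12 (limma, unadjusted p = 0.267). CYP1A2, a P450 of adult liver, differed by -0.062 ± 0.12.

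UGT1A6, a glucuronosyltransferase that conjugates phenols, was measured on 1 probeset of its own, with log2 signals of 5.88 and 4.69 with TBBD, against 5.16 and 5.35 with DMSO. The TBBD arrays were the highest and the lowest, and the difference was 0.027 ± 0.40 (SE). It was 0.62 without TBBD replicate 2 and -0.57 without TBBD replicate 1, fits that mix treatment with replicate number. The UGT1A genes share exons, and 11 further probesets that name several of them differed by 0.11.

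Set within each replicate number, the antioxidant genes had a median of 0.045 in replicate 1 and 0.0017 in replicate 2. Of the 24, 7 were higher with TBBD in both numbers and 5 lower in both, while 12 had opposite signs. The xenobiotic genes had a median of 0.11 in replicate 1 and -0.026 in replicate 2, with 3 of 9 higher in both numbers and 1 lower in both. Among all genes 21.5% were higher in both numbers and 23% lower in both. For the olfactory receptor genes these shares were 32.2% and 14.1%. Each of these differences sets 1 array against 1 array and has no test.

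Like most genes on these arrays, the antioxidant genes differed more between replicate numbers than between treatments. Replicate 2 arrays carried lower signals than replicate 1 arrays for 20 of the 24 antioxidant genes, with a median log2 difference (replicate 2 minus replicate 1) of -0.28, where 50.6% of all genes were lower and their median was -0.0024. In a limma fit on the number alone 6 of the 33 genes had an adjusted p under 0.05, as did 5.37% of all genes. All 6 were antioxidant genes and fell in replicate 2: NQO1, HMOX1, TXNRD1, TALDO1, TKT and PRDX1. Of the xenobiotic genes 0 of 9 passed. At an unadjusted p under 0.05 in limma there were 15 of 24 antioxidant genes and 2 of 9 xenobiotic genes, against 21% of all genes, so the xenobiotic share was near that background. Because these are bulk samples, fewer cells of a type and less RNA per cell cannot be told apart.

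NQO1 had the largest of these differences, with 6.93 in TBBD replicate 2 and 6.78 in DMSO replicate 2, against 7.68 in TBBD replicate 1 and 7.69 in DMSO replicate 1. It fell by 0.83 ± 0.10 (SE) on the log2 scale (limma, adjusted p = 0.00762), by 0.75 among TBBD arrays and by 0.92 among DMSO arrays. TALDO1 differed by -0.69 ± 0.11 (limma, adjusted p = 0.0171), TKT by -0.69 ± 0.14 (adjusted p = 0.0399) and PRDX1 by -0.65 ± 0.14 (adjusted p = 0.0451). These 3 genes were lower in replicate 2 under either treatment, at -0.65, -0.98 and -0.50 among TBBD arrays and -0.72, -0.40 and -0.79 among DMSO arrays. HMOX1 differed by -0.49 ± 0.098 (limma, adjusted p = 0.0346) and TXNRD1 by -0.45 ± 0.098 (adjusted p = 0.0463).

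Only NQO1 of these 6 passed in all 16 settings tried. PRDX1 and TALDO1 passed in 13, TKT in 12, HMOX1 in 10 and TXNRD1 in 9. Leaving out 1 array left 3 of the 6 without TBBD replicate 1 (NQO1, TALDO1 and PRDX1), 1 without TBBD replicate 2 (NQO1), 2 without DMSO replicate 1 (NQO1 and TKT) and 3 without DMSO replicate 2 (NQO1, TALDO1 and TKT). With treatment as a second term 3 passed, which were NQO1, TALDO1 and PRDX1. GCLC passed in 4 settings and CYP1A1 in 2, in which the count for the 33 genes was 7 or 8.

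The 2 replicate numbers did not overlap for 25 of the 33 genes, where 51% of all genes did so. Among the antioxidant genes, 15 of 24 were lower in replicate 2 without overlap and 4 were higher, against 25.9% and 25.1% of all genes. The 4 were KEAP1, the inhibitor of NRF2, at 0.28 ± 0.097 (SE), and AKR1C2, AKR1B10 and ABCC2, at 0.25 to 0.34. Among the xenobiotic genes CYP1A1 stood at 0.49 ± 0.12 (limma, adjusted p = 0.0584) and AHRR at 0.62 ± 0.19 on its 1 probeset, which became -0.095 with the probesets shared with a neighbour. The xenobiotic median was -0.016, with 4 genes higher and 5 lower, and had no steady sign: it was -0.077 without TBBD replicate 2 and 0.071 without DMSO replicate 2. In size the difference between numbers exceeded that between treatments for 21 of 24 antioxidant genes and 7 of 9 xenobiotic genes, and for 66.3% of all genes.

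**Figure D3:**
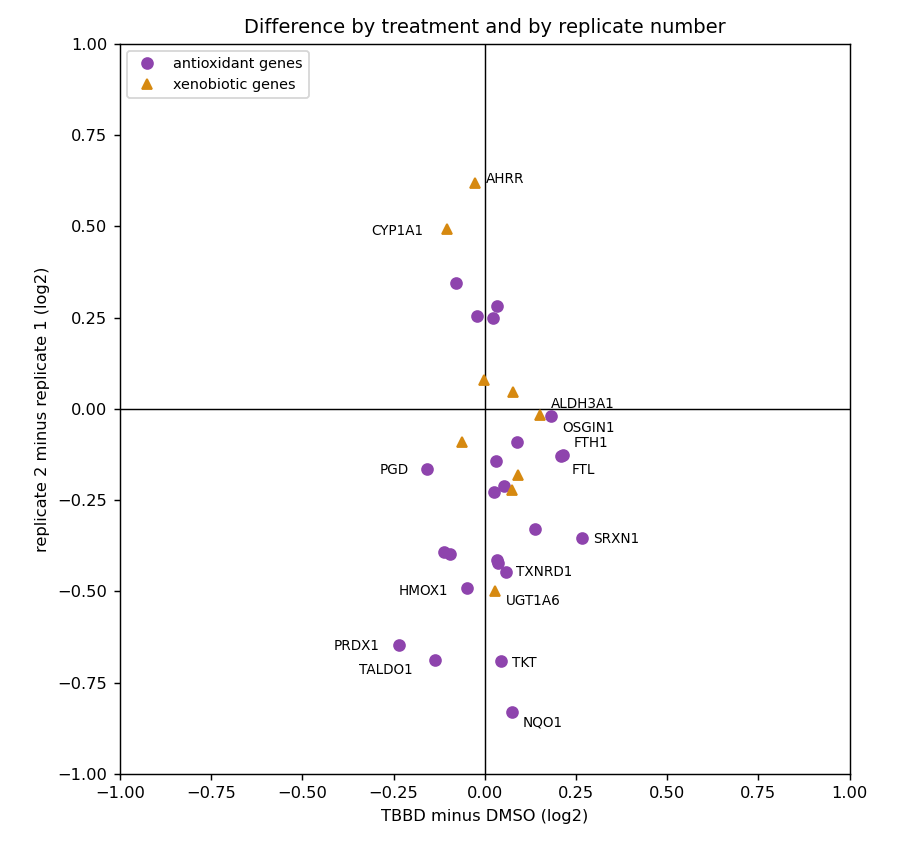
Log2 difference of TBBD minus DMSO (horizontal axis) against that of replicate 2 minus replicate 1 (vertical axis) for the 33 genes, on equal scales, antioxidant genes as purple circles and xenobiotic genes as orange triangles. Both axes use the same 4 arrays. Treatment differences lie between -0.24 and 0.27, while number differences run from -0.83 for NQO1 to 0.62 for AHRR.

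Markers of other cell types moved with the replicate number in the same arrays. Visceral endoderm and liver markers were higher in replicate 2 for 13 of 14 measured genes, with a median log2 difference of 1.40. Past the adjusted threshold in limma were 10 of these 14 markers, against 5.37% of all genes. The log2 of their summed signal was 11.04 and 10.73 in TBBD and DMSO replicate 2, against 9.45 and 9.32 in TBBD and DMSO replicate 1. Mesenchyme markers were higher for 11 of 12, with a median of 1.49 and sums of 13.65 and 13.50 in replicate 2, against 12.06 and 11.81 in replicate 1. Pluripotency markers were lower for 10 of 11, with a median of -0.28 and sums of 11.75 and 11.91 in replicate 2, against 12.20 and 12.21 in replicate 1. The exception was SOX2, which was higher in replicate 2 by 1.29 ± 0.20 (SE; limma, adjusted p = 0.0151). AFP, the fetal serum protein that defines the first list, differed by 2.43 ± 0.15 (SE; limma, adjusted p = 0.000682). Of the other marker lists, primitive streak markers were lower in replicate 2 for 7 of 8 (median -0.71), keratin epithelium for 5 of 6 (-0.41) and trophoblast for 6 of 10 (-0.38). Endothelial and blood markers were higher for 7 of 9 (0.78) and neural markers for 6 of 8 (0.22). The part of these cell types in the antioxidant differences was not tested, and no marker is at 0 on these arrays since the values are log2 signals.

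Marker lists also had medians away from 0 between treatments, though no marker passed the adjusted threshold in limma. Primitive streak markers were lower with TBBD for 8 of 8 genes, with a median of -0.61. Their log2 summed signals were 9.24 and 8.96 with TBBD, against 10.28 and 9.17 with DMSO. Within replicate 1 their median was -0.86 with 8 of 8 lower, and within replicate 2 it was -0.21 with 6 of 8 lower. Pluripotency markers were lower with TBBD for 10 of 11, with a median of -0.18. Visceral endoderm and liver markers were higher for 14 of 14, with a median of 0.18, and mesenchyme markers for 10 of 12, with a median of 0.13. Trophoblast markers were higher for 8 of 10 (median 0.19), endothelial and blood markers for 7 of 9 (0.13) and neural markers for 5 of 8 (0.12). Keratin epithelium markers were higher for 3 of 6 (-0.0057). The part of these marker lists in the treatment values above was not tested.

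Further genes of the 2 pathways, from lists that hold none of the 33, gave the same count of 0 past the adjusted threshold between TBBD and DMSO in limma, and also 0 at an unadjusted p under 0.05. Of 34 further NRF2 genes, 20 were higher and 14 lower, with a median log2 difference of 0.021. TXNIP, which inhibits thioredoxin, had 9.39 and 9.92 with TBBD, against 7.91 and 10.04 with DMSO, so that DMSO replicate 1 alone was low, and its difference was 0.68 ± 0.70 (SE). At the other end, the microsomal glutathione transferase gene MGST1 stood at -0.34 ± 0.24. Of 13 partners and regulators of NRF2, 4 were higher and 9 lower with a median of -0.072, from MAFK, a small MAF partner, at 0.22 ± 0.13, to RBX1, a subunit of the KEAP1 ubiquitin ligase, at -0.23 ± 0.11.

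Of 18 further AHR genes, 9 were higher and 9 lower with a median of 0.0045. Treatments did not overlap for 0 of these 18, against 20.9% of all genes. The extremes of the 18 were LPCAT2 at 0.088 ± 0.26 (SE) and the amino acid transporter gene SLC7A5 at -0.13 ± 0.64. SLC7A5 differed far more by number, at -1.40 ± 0.11 for replicate 2 minus replicate 1 (limma, adjusted p = 0.00123). Of 24 other antioxidant enzymes, which are not in the NRF2 lists used here, 10 were higher and 14 lower with a median of -0.026. PRDX5, a peroxiredoxin of mitochondria and peroxisomes, had 8.32 and 8.45 with TBBD, against 8.06 and 8.14 with DMSO, without overlap, and differed by 0.29 ± 0.12. GLRX3, a glutaredoxin, stood lowest of that list at -0.18 ± 0.17. Of 18 other drug metabolism genes, 10 were higher and 8 lower with a median of 0.023, from SULT1E1, an oestrogen sulfotransferase, at 0.12 ± 0.29 to the methyltransferase gene TPMT at -0.11 ± 0.20.

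**Figure D4:**
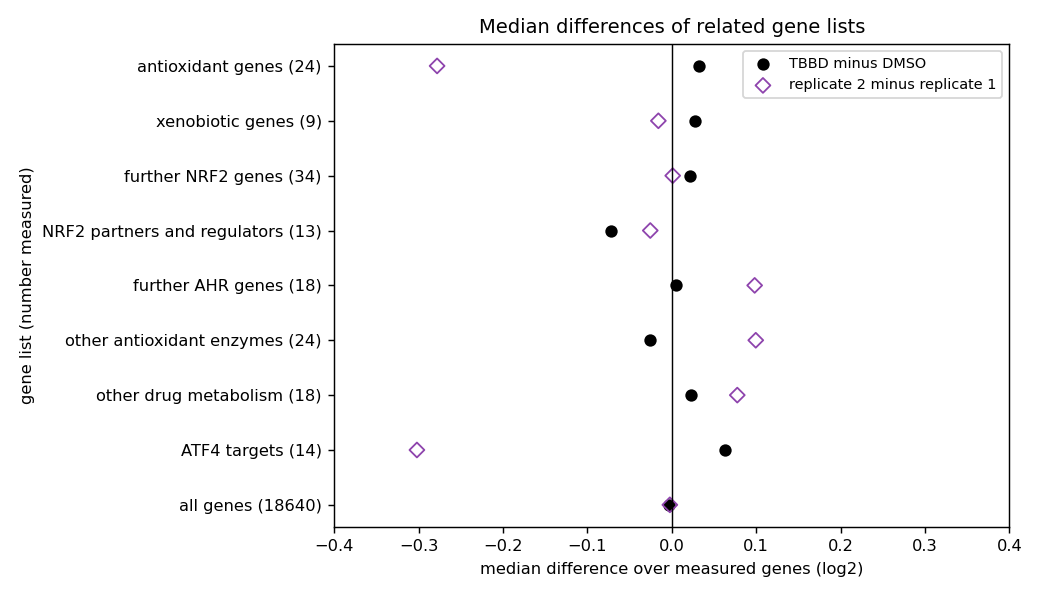
Median log2 difference over the measured genes of each list (horizontal axis), with the number of genes beside the name (vertical axis). Filled points are TBBD minus DMSO and open diamonds are replicate 2 minus replicate 1. Treatment medians lie between -0.072 and 0.063, while the antioxidant genes and the ATF4 targets have number medians of -0.28 and -0.30.

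The lower signals in replicate 2 did not extend to every antioxidant list. The median difference between numbers was 0.0010 for the further NRF2 genes, with 17 of 34 lower, and 0.099 for the other antioxidant enzymes, with 17 of 24 higher. Targets of ATF4, the transcription factor of the amino acid stress response that also induces SLC7A11, had a median of -0.30. Of these targets 11 of 14 were lower and 5 were past the adjusted threshold in limma, against 50.6% and 5.37% of all genes. Between TBBD and DMSO the ATF4 targets had a median of 0.063, with 9 of 14 higher, at 0.23 in replicate 1 and -0.063 in replicate 2. SESN2 is in both the other antioxidant enzymes and the ATF4 targets, and the difference between these lists was not tested.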

How the data were processed

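Total RNA from the 4 samples was hybridised to Affymetrix Human Gene 1.0 ST arrays, 1 per sample. The deposited values are log2 signals per exon-level probeset, made by the authors with RMA per the submitters' processing notes; the RMA version was not given in the sources used here, and the log2 scale follows from the range of the values. Of 247312 probesets, 277 with a placeholder value were left out. The 9980 probesets naming several genes and 18128 naming none were not used. Symbols (18683) were updated for 2528 through a RefSeq gene table, and 218927 probesets were averaged into 18640 genes (median 9 probesets; 1068 genes on 1). Groups came from sample titles.

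For TBBD against DMSO the moderated test of limma was used (two-sided, group as the only term, Benjamini-Hochberg over all genes, threshold 0.05), and replicate 2 with replicate 1 by a fit on the number alone. The 2 numbers only share a label, so the number as a block was an alternative. Deviations of same-numbered arrays from their group means correlated at 0.57 across genes, and the SD across genes was 0.31 and 0.33 between arrays of 1 treatment, against 0.21 and 0.19 within a number. Other alternatives were another normalization, leaving out dim genes, the median over probesets, at least 3 probesets, symbols as given, other priors, each array left out and a longer motif. Adding probesets that name several genes, and leaving out AHRR and UGT1A6, were chosen after seeing the data. The small number of arrays limits precision.

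The genes and lists were chosen with earlier results of these data known. Array values are given for the regulators, the usual reporter genes, the 3 antioxidant and 2 xenobiotic genes with the largest treatment difference and genes called between numbers. FTL, UGT1A6, ARNT's separation and AFP were picked after their values were seen. Of each other list the highest and lowest difference could be named. Analyses used R 4.3.3 with limma 3.58.1, tested on simulated data, and numpy 2.4.6, pandas 2.3.3 and matplotlib 3.10.9 under Python 3.11.15.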

Additional observations from a re-analysis of the deposited data

How the results depend on the processing

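With limma, 0 of all genes and 0 of the 33 passed the adjusted threshold for TBBD against DMSO in every setting tried. With the replicate number as a block the count was also 0, both list medians were unaltered and 0 of the 33 had an unadjusted p under 0.05, against 496 of all genes. With 1 array left out, treatment and number are unequal by construction, the lone array of a group is assumed to vary like the others, and 28 of the 33 genes turned sign while 5 did not (AKR1C1 0.0092 to 0.17, ALDH3A1 0.085 to 0.22, ARNT 0.040 to 0.12, FTL 0.11 to 0.31 and SRXN1 0.053 to 0.48). The ranges of those that turned were ABCC2 -0.16 to 0.12, AHR -0.055 to 0.051, AHRR -0.56 to 0.50, AKR1B10 -0.27 to 0.11, AKR1C2 -0.12 to 0.16, CYP1A1 -0.42 to 0.22, CYP1A2 -0.12 to 0.0010, CYP1B1 -0.10 to 0.24, FTH1 -0.0027 to 0.43, GCLC -0.21 to 0.28, GCLM -0.062 to 0.17, GSR -0.22 to 0.29, HMOX1 -0.30 to 0.20, KEAP1 -0.11 to 0.18, ME1 -0.32 to 0.10, NFE2L2 -0.083 to 0.15, NQO1 -0.38 to 0.53, OSGIN1 -0.011 to 0.38, PGD -0.34 to 0.025, PRDX1 -0.63 to 0.16, SLC7A11 -0.55 to 0.36, SQSTM1 -0.048 to 0.33, TALDO1 -0.50 to 0.22, TIPARP -0.015 to 0.20, TKT -0.45 to 0.53, TXN -0.12 to 0.17, TXNRD1 -0.18 to 0.29, UGT1A6 -0.57 to 0.62. For replicate 2 minus replicate 1 they were ALDH3A1 -0.15 to 0.12, ARNT -0.0073 to 0.10, FTH1 -0.39 to 0.14, FTL -0.27 to 0.0054, OSGIN1 -0.29 to 0.26, PGD -0.34 to 0.016. The antioxidant median of TBBD minus DMSO ran from -0.10 to 0.18 with 1 array left out, and was -0.014 with the median over probesets. The xenobiotic median, 0.028 and the value of the 1-probeset gene UGT1A6, ran from 0.0010 to 0.085 with 1 array left out, and was -0.0098 with the median over probesets, 0.074 without AHRR and UGT1A6 and 0.078 with probesets naming several genes added. The median over probesets also gave NQO1 -0.11, GCLM -0.085, TKT -0.011, AKR1C2 -0.042, KEAP1 -0.24, CYP1A2 0.11, CYP1B1 -0.051, TIPARP -0.052, AHR 0.33 and ARNT -0.0098. AHR was 0.0061 with quantile normalization again and 0.0010 with median centring, and AHRR was 0.098 with probesets naming several genes added. Between numbers the median over probesets gave OSGIN1 0.16, FTL 0.12, CYP1A2 0.067, ALDH3A1 0.27, AHR -0.024 and ARNT -0.14, and the added probesets gave AHRR -0.095. The causes were not tested. Between numbers, 1001 genes passed in all, against 653 with treatment as a second term and 368 to 685 with 1 array left out. The 6 of the 33 genes became 2 with the median over probesets, 3 with treatment as a second term and 1 to 3 with 1 array left out. They became 7 with median centring or the stricter filter on dim genes, and 8 with the milder filter or at least 3 probesets. The xenobiotic median between numbers, -0.016, ran from -0.077 to 0.071 with 1 array left out, and was 0.062 and 0.046 with the milder and the stricter filter and -0.089 with the added probesets. Within replicate 2 the antioxidant median was -0.038 among the brighter genes (dimmer ones left out), and with the median over probesets the xenobiotic median was 0.21 in replicate 1 and -0.25 in replicate 2. Longer forms of the antioxidant and the xenobiotic motif, with added flanking bases, were found in 1 and 1 of 18 antioxidant promoters and in 0 and 2 of 7 xenobiotic ones, by construction fewer than the cores. With 2 arrays a group, the median distance of a 95% confidence bound from the difference was 0.49 for the antioxidant genes and 0.35 for the xenobiotic genes in the fit without the block, and standard errors were smaller with it.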
